A study of Mus musculus with 6 samples.

Results

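Potassium channel genes were examined in ureteric bud cells of E16.5 mouse embryos, sorted by fluorescence. They were chosen by symbol, as the rows of the count table whose name starts with Kcn followed by letters and a digit, with Kcnj1 left out. This gave 77 genes of 17189. The knockout (cKO) embryos carried a Hoxb7Cre-GFP transgene and Ash2l F/F, with both alleles of Ash2l flanked by loxP sites. The control embryos carried the same transgene and Ash2l F/+, with 1 floxed allele, so all samples expressed Cre and had at least 1 floxed allele. Each genotype had 3 libraries of untreated cells. Hoxb7 regulatory sequence drives the transgene in the ureteric lineage, so the sort depends on a promoter of that lineage. The labels number the libraries as biological replicates and do not say whether each is 1 embryo or a pool, so a p-value here reflects library-to-library spread, which may be technical in part. In bulk RNA, fewer cells of a type and less RNA per cell cannot be told apart.

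Potassium channels are membrane pores that let potassium leave or enter a cell and set its resting voltage. Their pore subunits fall into voltage-gated, inwardly rectifying, tandem-pore and calcium-activated classes, and accessory subunits change their gating and traffic. In the mature collecting duct, which grows from the ureteric bud, such channels secrete potassium into the urine and recycle it across the basolateral membrane, working against the sodium-potassium pump. ASH2L is a shared subunit of the enzymes that place H3K4 methylation, a histone mark found at active promoters and most densely at those rich in CpG.

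Promoter sequence is shown for those members that were called in either comparison below, have 1 RefSeq start site and have at least 60 upstream bases in a row outside annotated exons, because H3K4 methylation is placed at promoters. The bases end at the start site, or before the first annotated exon base for Kcne1l, and run 5′ to 3′ on the gene's strand. They are from RefSeq, build GRCm38.p6, with each CG in capitals. The windows are Kcne1l chrX:142306295-142306448 on the minus strand, Kcnn4 chr7:24370013-24370262, Kcna3 chr3:107035912-107036161 and Kcnk1 chr8:125994852-125995101, the last 3 on the plus strand.

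Kcne1l: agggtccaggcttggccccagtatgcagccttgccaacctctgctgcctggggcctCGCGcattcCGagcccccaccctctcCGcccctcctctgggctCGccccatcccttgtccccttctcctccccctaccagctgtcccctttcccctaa

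Kcnn4: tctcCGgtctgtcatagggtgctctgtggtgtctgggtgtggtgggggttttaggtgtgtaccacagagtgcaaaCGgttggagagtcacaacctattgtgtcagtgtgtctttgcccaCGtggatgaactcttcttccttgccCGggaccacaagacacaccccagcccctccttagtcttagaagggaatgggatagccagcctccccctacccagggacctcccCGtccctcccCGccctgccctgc

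Kcna3: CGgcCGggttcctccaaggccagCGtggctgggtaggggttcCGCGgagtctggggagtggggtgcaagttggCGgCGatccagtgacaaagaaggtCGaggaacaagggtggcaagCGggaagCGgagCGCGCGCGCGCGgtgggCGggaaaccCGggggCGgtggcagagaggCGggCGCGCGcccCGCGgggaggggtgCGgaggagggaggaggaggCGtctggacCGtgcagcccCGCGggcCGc

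Kcnk1: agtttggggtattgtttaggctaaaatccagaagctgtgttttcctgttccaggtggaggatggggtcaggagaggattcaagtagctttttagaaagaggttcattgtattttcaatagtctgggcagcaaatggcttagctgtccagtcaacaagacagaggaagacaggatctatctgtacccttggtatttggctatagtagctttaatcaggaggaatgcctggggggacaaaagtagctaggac

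The Kcna3 window held 31 CG, a number reached by 5.19% of the 32851 RefSeq windows over the same 250 bases. That of Kcnn4 held 6 (50.4% of windows had at least as many) and that of Kcnk1 held none, as did 7.87% of windows. The 154 bases of Kcne1l held 5 CG, and 38.02% of windows had at least as many in those positions. None held TATAAA on either strand, which 12.4% of all windows did. Kcnma1 and Kcnj3 also have 1 start site, but their upstream bases overlap annotated exons. Over the full 250 bases these held 31 CG for Kcnma1 and 7 for Kcnj3. RefSeq windows were matched for 58 of the 77 members, and the members' windows were not compared as a set.

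Library totals were 9620235 to 9860475 counts in cKO and 10359475 to 10538314 counts in controls. The floor for a gene at 0, taken as 3 counts, was 0.285 to 0.307 CPM (counts scaled by library size with TMM factors) in a single library, and it covers counting error only. The targeted gene Ash2l stood at 46.1, 29.7 and 21.4 CPM in cKO replicates 1, 2 and 3, against 189.8, 176 and 159 CPM in control replicates 1, 2 and 3. It fell in cKO (log2 fold change -2.43, SE 0.284, edgeR adjusted p = 0.00786), also with any 1 library left out (-2.22 without cKO replicate 3, described next). All 16 ureteric epithelium markers were tested and 4 of them fell, and their summed level was 6231 to 7087 CPM in cKO and 9468 to 10476 CPM in controls. One cKO library stood apart. In cKO replicate 3, 5871 genes were listed at 0, against 1261 to 1674 in the other cKO libraries and 2354 to 2712 in controls. Its log2 CPM correlated across genes at 0.734 to 0.809 with the other libraries, which correlated among themselves at 0.890 to 0.971. Fold changes and edgeR calls are therefore given with and without this library. Y-linked reads also went with the genotype, except for Eif2s3y in cKO replicate 3. Ddx3y, Uty and Kdm5d, named after their values were seen, had 0 counts in each cKO library and reads in each control. Eif2s3y had 0, 0 and 504 counts in cKO replicates 1, 2 and 3, and 736, 815 and 439 counts in controls. Without cKO replicate 3, the sex of the embryos, as far as these reads show it, and the genotype cannot be told apart. With 6 libraries only the Eif2s3y reads of cKO replicate 3 depart from this, and Ddx3y, Uty and Kdm5d were at 0 there. The reads do not settle the sex of that library, so sex and genotype cannot be separated reliably with 6 libraries either.

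Potassium channel genes were sparsely expressed, and 1 gene carried about as much as all others together. In controls 10 of the 77 members averaged at least 1 FPKM (the authors' level scaled by gene length and library size), which is 12.99%, against 64.1% of all genes. Kcnk1, which encodes the tandem-pore channel TWIK1, was at 68.8, 55.4 and 74.3 FPKM in cKO replicates 1, 2 and 3, and at 75.4, 79.1 and 84.1 FPKM in controls 1, 2 and 3. It made up 42.5% to 55.8% of the summed FPKM of the 77 genes in cKO and 50.7% to 54.8% in controls. By mean control FPKM it was gene 1219 of 17189. The next members in controls were Kcnn4 (17.7 ± 5.50 FPKM, SD, n = 3), Kcnk5 (11.7 ± 1.43), Kcnq1 (10.4 ± 2.91) and Kcnj16 (9.36 ± 3.87). Kcnn4 exceeded Kcnk5 by little more than its own SD, and Kcnk5, Kcnq1 and Kcnj16 differed from their neighbours among these 3 by less than an SD. Kcnh6 (3.27 ± 1.51 FPKM), Kcna3 (2.07 ± 0.383), Kcnc2 (1.85 ± 0.456) and Kcne1l (1.28 ± 0.276) followed in controls.

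**Figure D1:**
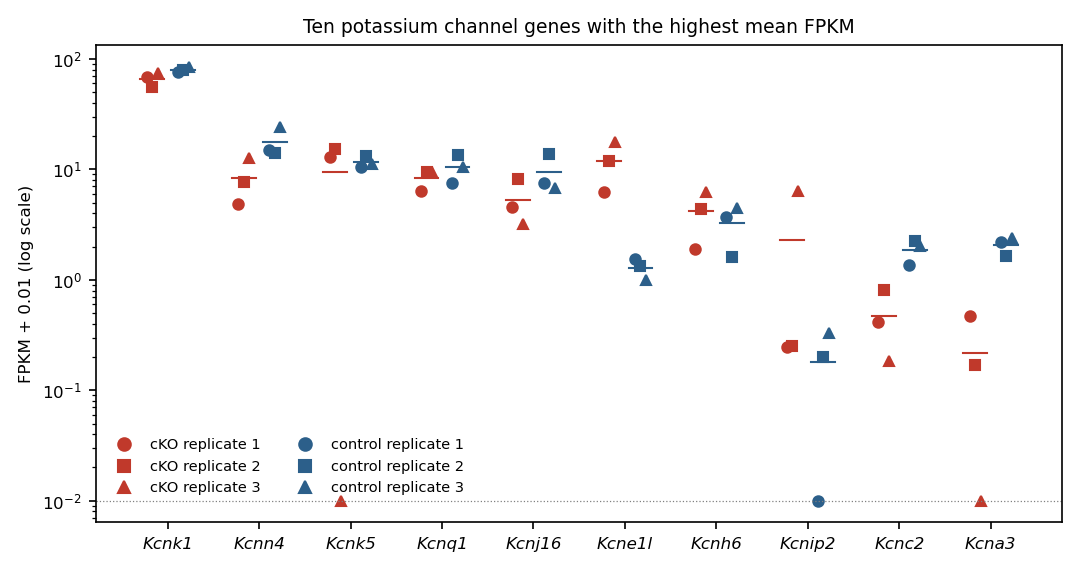
FPKM + 0.01 on a log axis for the 10 members with the highest mean FPKM over 6 libraries. Points are libraries, cKO left of control, and short lines are group means. Kcnk1 lies above all others in every library, Kcne1l is higher in all cKO libraries, and Kcnk5 and Kcna3 are at 0 in cKO replicate 3 (dotted line).

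A gene's FPKM depends on the length that the deposited values imply. For Kcnip4 this length was 165 kb, against 3.63 kb of exons in GENCODE M21. It was 98.3 kb against 5.15 kb for Kcnd2 and 26.5 kb against 3.13 kb for Kcnmb2, both picked after their values were seen. The implied length was within a factor of 2 of the exon length for 59 of 77 members. It was 2.44 times the exon length for Kcnk1 and 0.483 times that for Kcnn4. FPKM levels of such genes are therefore uncertain by these factors relative to other genes. The implied length of a gene is the same in every library, so the length itself cancels in comparisons between libraries. Whether the counts of such genes hold reads from outside the annotated exons was not tested.

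The comparison of cKO with control sets cells with both Ash2l alleles floxed against cells with 1 floxed allele, under the same Cre transgene. As given above, genotype and sex cannot be separated reliably in it. Of the 77 members, 36 passed the filter on low counts, which 13047 of all genes passed. Among these 36, 1 rose in cKO and none fell by edgeR at an adjusted p under 0.05. Over all genes tested 7.11% were called, 3.52% as higher and 3.59% as lower, against 2.78% of the tested members. At an unadjusted p under 0.05 there were 1 higher and 5 lower members. No share over all genes was taken at this threshold, so these counts show no lean particular to the members. DESeq2 called 1 higher and 1 lower (15.7% of all genes were called), and limma-voom with library weights 3 higher and 6 lower (25.8% of all genes). The median log2 fold change was -0.36 over the 36 members and -0.04 over all genes tested. Of the members, 22 (61.1%) had a negative value, as did 52.3% of all genes tested. The 41 members that did not pass are not covered by these counts.

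Kcne1l, also named Kcne5, encodes a single-span accessory subunit that associates with voltage-gated channels. It was the member that rose. Its level was 8.99, 16.7 and 24.8 CPM in cKO replicates 1, 2 and 3, and 2.26, 1.90 and 1.47 CPM in control replicates 1, 2 and 3. All cKO libraries were above all controls, the nearest pair being 8.99 CPM in cKO and 2.26 CPM in control. The estimate on the log2 scale was 3.16 (SE 0.592, edgeR adjusted p = 0.0287), which is 8.92-fold higher. The call remained without cKO replicate 1 and without cKO replicate 3 (2.76, adjusted p = 0.000408). It was lost without control replicate 1 (adjusted p = 0.116), control replicate 2 (0.138), control replicate 3 (0.143) or cKO replicate 2 (0.103). The gene lies on the X chromosome, and whether sex has a part in its rise was not tested. Its highest level, 24.8 CPM, was in cKO replicate 3, the only cKO library with reads of the Y-linked Eif2s3y (504 counts).

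Without cKO replicate 3, 42 members were tested, and 4 rose and 5 fell. That is 21.4% of them, against 28.5% of all genes tested, with 13.7% of all genes called higher and 14.9% called lower. The 4 higher members were Kcne1l, Kcnip4, Kcnk2 and Kcnma1, and the 5 lower were Kcna3, Kcnc2, Kcnj3, Kcnk1 and Kcnn4. The median over the members was then -0.18, against 0.01 over all genes. Groups that do not overlap in CPM were also counted. With 6 libraries 1 of 36 members had every cKO library above every control (16.7% of all genes did) and 9 had every cKO library below (20.7%). Without cKO replicate 3 these were 9 and 10 of 42, against 29.1% and 26.5% of all genes.

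**Figure D2:**
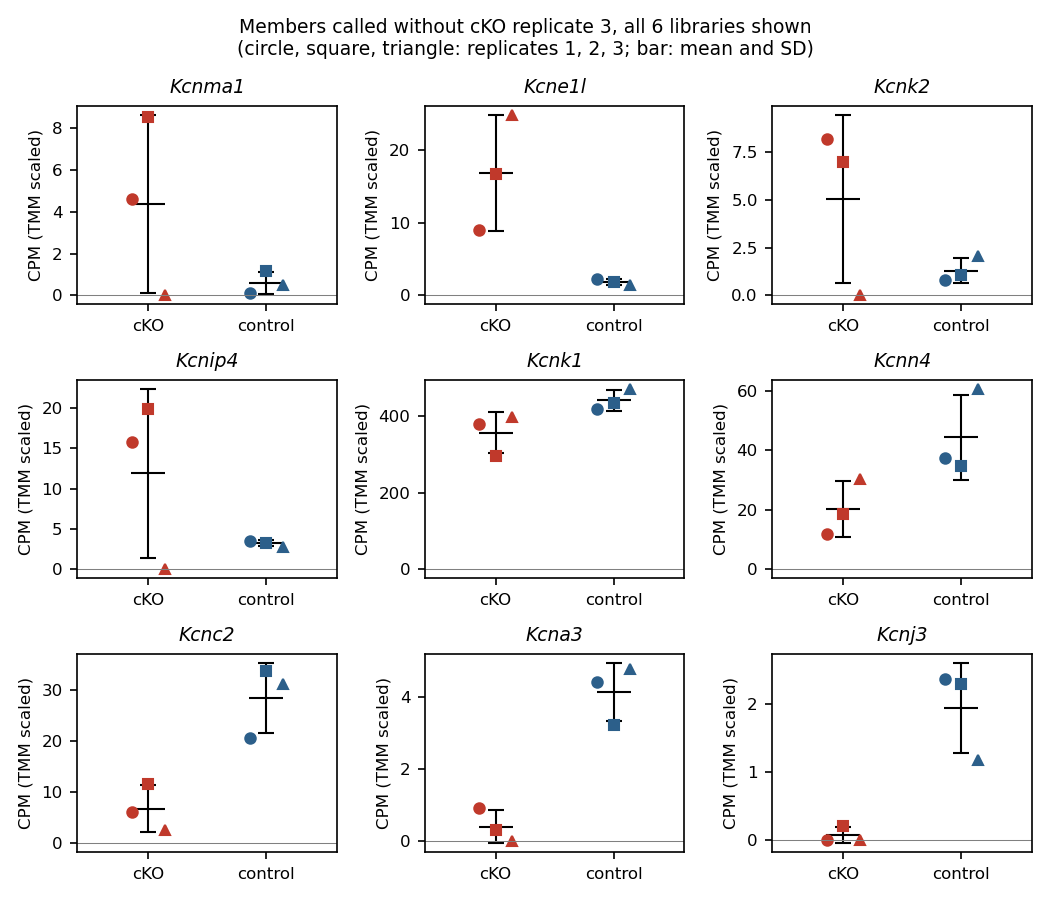
CPM of the 9 members called without cKO replicate 3, in all 6 libraries, with the mean and SD of each group of 3. Kcnma1, Kcnk2 and Kcnip4 are at 0 in cKO replicate 3 and high in the other two cKO libraries, while Kcnn4, Kcnc2, Kcna3, Kcnj3 and Kcnk1 lie below the controls in all cKO libraries.

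Among the tandem-pore channels, which carry background potassium current, 9 members were listed and 3 were tested with 6 libraries, none of them called. Kcnk1 was at 378, 295 and 397 CPM in cKO replicates 1, 2 and 3, against 418, 432 and 471 CPM in controls. Each cKO library was below each control, but by a small amount (log2 fold change -0.31, SE 0.130, edgeR adjusted p = 0.222). Leaving out cKO replicate 3 it fell by 0.40 (SE 0.119, adjusted p = 0.0229). Kcnk2 encodes TREK-1, a channel opened by membrane stretch and lipids. It had 80, 69 and 0 counts in cKO replicates 1, 2 and 3, and 8, 11 and 21 counts in controls. The first 2 cKO libraries were above every control and cKO replicate 3 was below. With 6 libraries its log2 fold change was 1.96 (SE 1.57, adjusted p = 0.534), and without cKO replicate 3 it rose by 2.53 (SE 0.566, adjusted p = 0.00459). Kcnk5 encodes TASK-2, an alkali-activated channel known from the proximal tubule. It had 555, 634 and 0 counts in cKO replicates 1, 2 and 3, against 473, 607 and 512 in controls. No other member had such a high count in 5 libraries and 0 in the sixth. Its log2 fold change was -0.35 with 6 libraries (SE 1.31, adjusted p = 0.911) and 0.23 without cKO replicate 3 (SE 0.160, adjusted p = 0.322).

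Calcium-activated channels open when cytosolic calcium rises. The family had 7 members with its sodium-activated relatives, and 5 were tested. Kcnn4 encodes the intermediate-conductance channel KCa3.1. It was at 12.1, 18.6 and 30.5 CPM in cKO replicates 1, 2 and 3, and at 37.6, 34.6 and 60.8 CPM in controls 1, 2 and 3. All cKO libraries were below all controls, with the highest cKO library close to the lowest control. On the log2 scale Kcnn4 differed by -1.12 (SE 0.405, edgeR adjusted p = 0.160), and leaving out cKO replicate 3 it fell by 1.54 (SE 0.280, adjusted p = 0.00128). Kcnma1 encodes the pore of the large-conductance BK channel, which secretes potassium in the collecting duct when tubular flow is high. It had 45, 84 and 0 counts in cKO replicates 1, 2 and 3, and 1, 12 and 5 counts in controls. Its log2 fold change was 2.90 with 6 libraries (SE 1.77, adjusted p = 0.396), and it rose by 3.47 without cKO replicate 3 (SE 0.782, adjusted p = 0.00486).

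The Kv1 to Kv4 genes encode classical voltage-gated pores that open on depolarisation. Of 14 members 5 were tested, 4 of these with a negative fold change. Kcnc2, which encodes the fast-deactivating Kv3.2, was at 6.13, 11.7 and 2.59 CPM in cKO replicates 1, 2 and 3, and at 20.6, 33.6 and 31.1 CPM in controls. The groups did not overlap. Its log2 fold change was -2.06 (edgeR, SE 0.579, adjusted p = 0.0864), DESeq2 called it lower (adjusted p = 0.00747), and leaving out cKO replicate 3 it fell by 1.68 (SE 0.319, adjusted p = 0.00154). Kcna3, which encodes Kv1.3, a channel best known from lymphocytes, had 9, 3 and 0 counts in cKO and 45, 34 and 49 counts in controls. It was below every control in every cKO library (log2 fold change -3.31, SE 1.34, adjusted p = 0.202), and leaving out cKO replicate 3 it fell by 2.75 (SE 0.762, adjusted p = 0.0158). Summed over the 14 genes, the level was 13.5, 24.0 and 2.69 CPM in cKO replicates 1, 2 and 3, against 33.4, 49.7 and 47.9 CPM in controls, with no overlap. The summed levels of the tandem-pore and calcium-activated families were also below every control in every cKO library, and that of the accessory subunits was above. In every library Kcnk1 carried most of the tandem-pore sum, and Kcnn4 was the largest term of the calcium-activated sum. Kcne1l was less than the rest of the accessory sum in every library. Without Kcnk1 the other tandem-pore members summed to 65.7, 72.7 and 0 CPM in cKO replicates 1, 2 and 3, against 49.5, 59.9 and 53.5 CPM in controls. Without Kcnn4 the other calcium- and sodium-activated members summed to 10.7, 18.7 and 0 CPM in cKO replicates 1, 2 and 3, against 7.66, 11.2 and 8.31 CPM in controls. Both of these remainders overlapped between the groups, as did that of the accessory subunits without Kcne1l. Without Kcnc2 the Kv1 to Kv4 genes summed to 7.36, 12.3 and 0.0998 CPM in cKO replicates 1, 2 and 3. Controls were at 12.8, 16.1 and 16.8 CPM, so the highest cKO library was only just below the lowest control. Kcna3, low in every cKO library, is part of this remainder, and the sum without Kcna3 was not taken. In cKO replicate 3, 12 of the 14 genes were at 0. No share over all genes was counted for such sums. Silent Kv subunits do not form channels alone and modify Kv2 pores. Their leading member Kcnf1 had 44, 52 and 0 counts in cKO and 2, 22 and 21 counts in controls, with overlap, and was not called (1.16, SE 1.64, adjusted p = 0.745; 1.74 and 0.110 without cKO replicate 3).

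**Figure D3:**
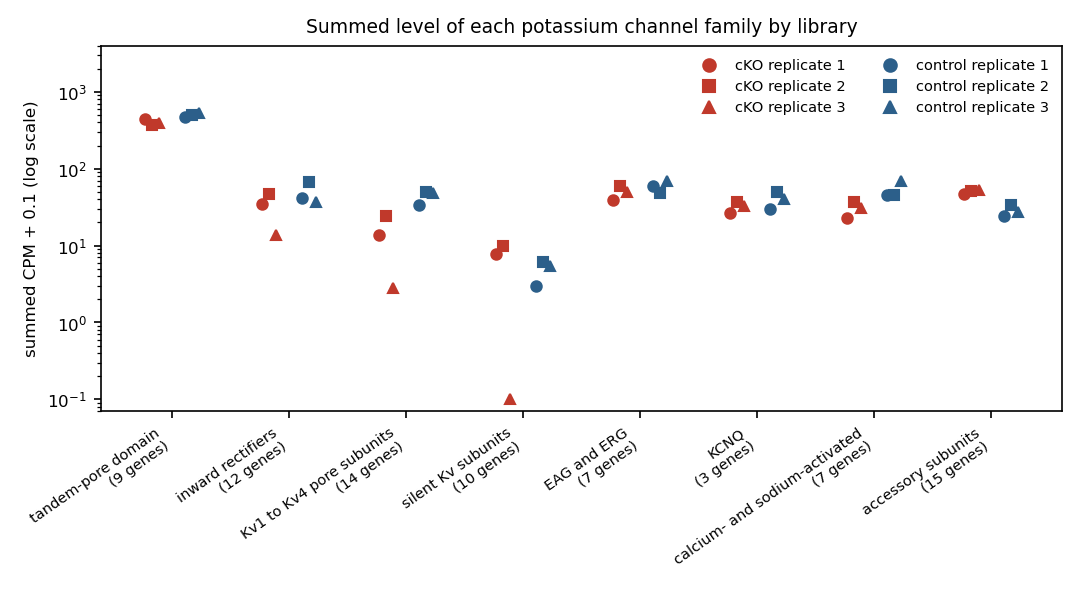
Summed CPM + 0.1 on a log axis for the 8 families, by library, with cKO left of control. The tandem-pore family lies highest in all libraries, the accessory subunits lie higher in all cKO libraries, and the silent Kv subunits are at 0 in cKO replicate 3.

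Inward rectifiers pass potassium more easily into the cell and hold the resting voltage. Of 12 members 4 were tested. Kcnj16 encodes Kir5.1, which pairs with Kir4.1 in the basolateral membrane of distal tubule cells. Kcnj16 was at 19.6, 34.5 and 13.6 CPM in cKO replicates 1, 2 and 3, and at 33.2, 59.8 and 29.8 CPM in controls. The groups overlapped, and it was not called (log2 fold change -0.86, SE 0.435, edgeR adjusted p = 0.303; -0.61 and 0.213 without cKO replicate 3). Kcnj3, which encodes the G-protein-gated subunit GIRK1, had 0, 2 and 0 counts in cKO and 24, 24 and 12 counts in controls. Its log2 fold change was -4.61 with 6 libraries (SE 1.53, adjusted p = 0.130). Without cKO replicate 2, the only cKO library with reads, Kcnj3 was not called (adjusted p = 0.159). The estimate of that fit, -7.31, is for a cKO group at 0 and is no measured fold. Kcnj3 was called lower without cKO replicate 3 (-4.10, adjusted p = 0.0256). Kcnj1, which encodes the secretory channel ROMK and is outside the rule used here, had 49, 65 and 160 counts in cKO and 0 in each control. It was at least 94.7-fold higher in cKO, with a floor of 3 counts over the control group, and at least 59.8-fold higher without cKO replicate 3. The edgeR adjusted p was 0.0307 with 6 libraries. Leaving out 1 library at a time kept the call only without cKO replicate 3 (adjusted p = 0.000282). The highest adjusted p was 0.103, without control replicate 3.

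KCNQ and EAG or ERG genes encode slower voltage-gated pores. All 3 KCNQ members and 5 of 7 EAG and ERG members were tested, none of them called. Kcnq1, which forms epithelial and cardiac channels with KCNE subunits, was at 6.42, 9.39 and 9.41 FPKM in cKO replicates 1, 2 and 3, and at 7.52, 13.4 and 10.4 FPKM in controls. The groups overlapped (log2 fold change -0.35, SE 0.283, edgeR adjusted p = 0.532; -0.45 and 0.196 without cKO replicate 3). The antisense transcript Kcnq1ot1 overlaps it and was not analysed here. Kcnh6, which encodes an ERG-type channel, was at 11.2, 25.3 and 36.0 CPM in cKO and at 22.4, 9.42 and 27.3 CPM in controls, also with overlap (0.30, SE 0.549, adjusted p = 0.808; -0.12 and 0.881 without cKO replicate 3).

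Accessory subunits had 15 members, 8 of them tested. Their summed level was 46.5, 51.8 and 52.4 CPM in cKO replicates 1, 2 and 3, and 24.0, 33.1 and 27.2 CPM in controls, without overlap. Of the 8 tested, 6 had a negative fold change, and without cKO replicate 3 this was 5 of 10. The higher sum was thus not shared by all tested members. Kcnip4, a calcium-binding KChIP that escorts Kv4 pores to the membrane, had 155, 196 and 0 counts in cKO replicates 1, 2 and 3, and 36, 35 and 29 in controls. It was highest in the first 2 cKO libraries (log2 fold change 1.88, SE 1.51, edgeR adjusted p = 0.536), and it rose by 2.45 without cKO replicate 3 (SE 0.328, adjusted p = 0.000116). Kcnip2, of the same family, showed the reverse within the cKO group, with 7, 7 and 186 counts. Controls had 0, 6 and 10 counts of Kcnip2, which did not pass the filter. Most of the accessory sum of the third cKO library was Kcne1l (24.8 CPM) and Kcnip2 (18.6 CPM). Kcnip4 (15.8 and 19.9 CPM) and Kcne1l were the largest terms in the other two.

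**Figure D4:**
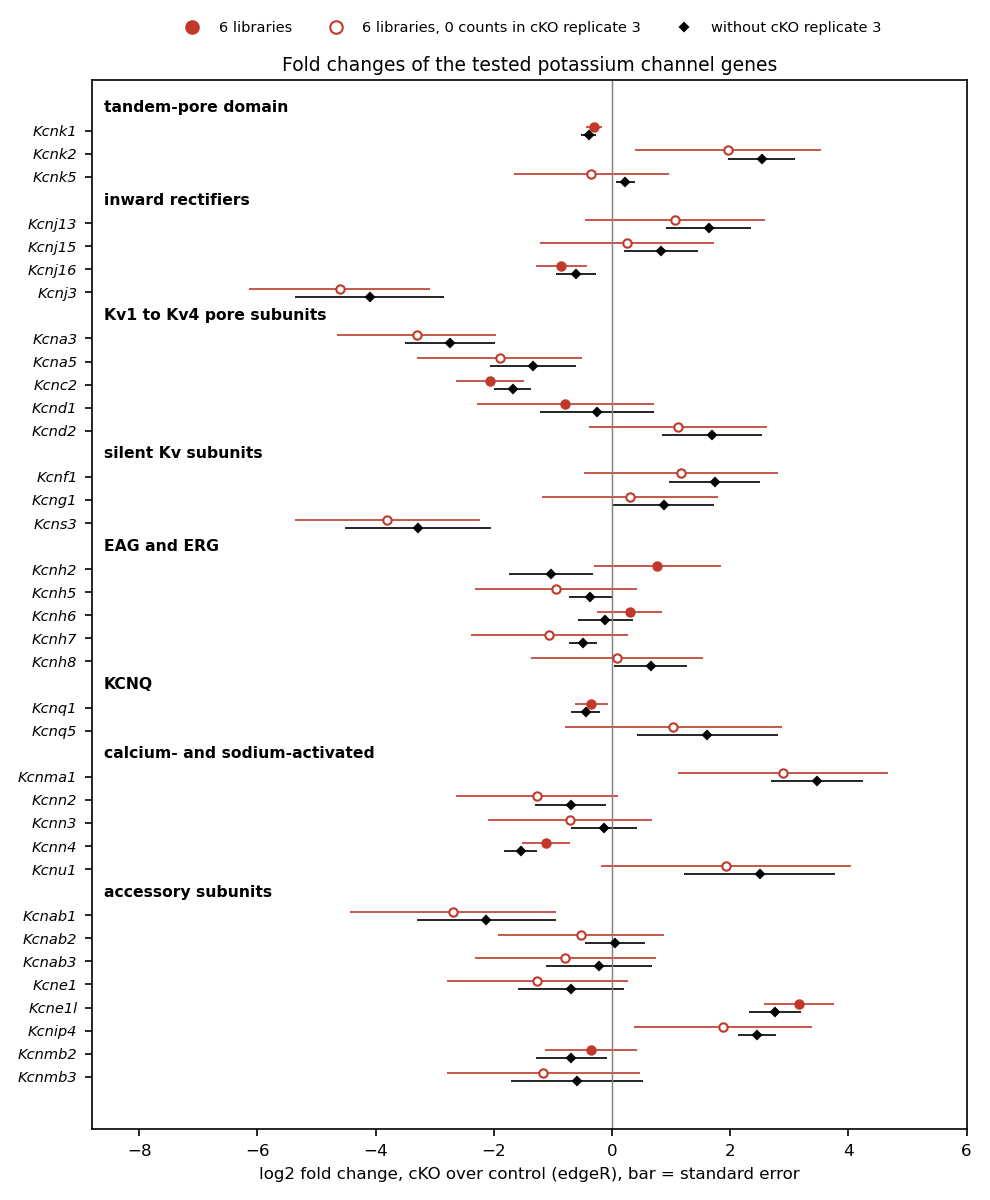
EdgeR estimates for members tested with 6 libraries: log2 fold change of cKO over control with its standard error, with all libraries (red circles, open where cKO replicate 3 had 0 counts) and without cKO replicate 3 (diamonds). Open circles have wide bars, and Kcnk5, Kcnh6, Kcnab2 and Kcnh2 change sign between the fits.

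Most members had no read in cKO replicate 3. At least 1 read was counted for 57, 65 and 12 of the 77 members in cKO replicates 1, 2 and 3, and for 56, 60 and 52 members in controls 1, 2 and 3. Of the 36 tested, 26 were at 0 in cKO replicate 3. Among genes with 11 to 50 counts in the lowest of the other 5 libraries, 7 of 9 members and 45.4% of all genes were at 0 there. With 51 to 200 counts these were 2 of 6 members and 18.0% of all genes, and with more than 200 1 of 3 members and 1.49% of all genes. Of the 12 members that had reads, 8 were higher in cKO replicate 3 than in both other cKO libraries, among them Kcnn4, Kcne1l, Kcnh6, Kcnip2 and Kcnk1. No such share was counted over all genes with reads in this library, so it cannot be read as particular to the members. The sign of the fold change differed without this library for Kcnk5 and Kcnh6, and, among others, for Kcnab2 and Kcnh2, which are named after their values were seen. Of members with reads in 1 group only, 6 were at 0 in all cKO libraries, with at most 15 counts in a control, and 7 were at 0 in all controls, with at most 7 counts in a cKO library.

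**Figure D5:**
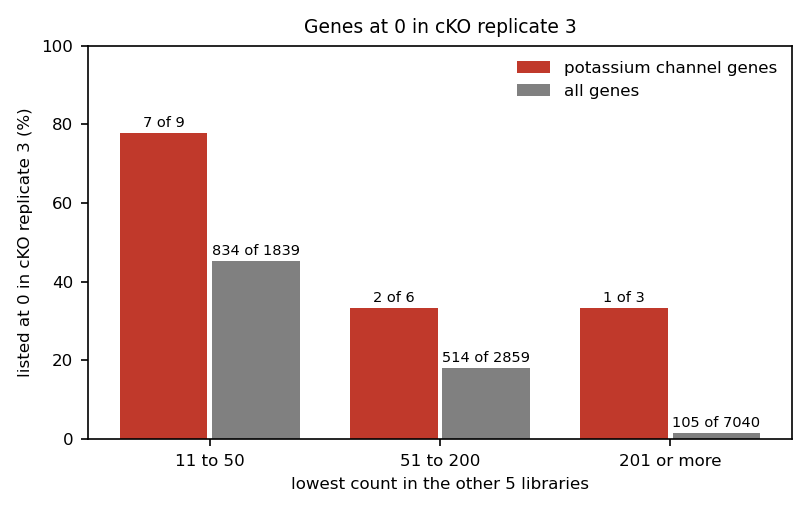
Percent of genes listed at 0 in cKO replicate 3, for potassium channel genes and for all genes, by the lowest count in the other 5 libraries. The share is higher among the members at each level, on 9, 6 and 3 members.

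Genes that work with these channels were counted from lists. Among 15 tested pumps and cotransporters, 2 fell and none rose with 6 libraries, where 3.59% of all genes tested fell and 3.52% rose. At an unadjusted edgeR p under 0.05 there were 2 higher and 5 lower, and DESeq2 called 1 higher and 3 lower. One of the 2 that fell was Atp1b1, the beta subunit of the sodium-potassium pump, which loads the cell with potassium. It was at 98.0 ± 37.2 CPM in cKO and 243 ± 23.5 CPM in controls (SD, n = 3 each; log2 fold change -1.31, SE 0.289, edgeR adjusted p = 0.0463). Leaving out 1 library at a time kept the call of Atp1b1 in 1 of 6 fits, that without cKO replicate 3 (-1.04, adjusted p = 4.81e-05; highest adjusted p 0.166, without control replicate 2). Without cKO replicate 3, 6 of 17 fell and 1 rose, against 14.9% and 13.7% of all genes tested. Of 8 tested channel partners and potassium-permeable channels with other names, none was called by edgeR (2 higher and 1 lower at an unadjusted p under 0.05), and DESeq2 called 1 lower. That was Amigo1, a Kv2 auxiliary protein, with 0 counts in each cKO library and 29, 29 and 38 counts in controls, at least 30.7-fold lower in cKO with a floor of 3 counts over the cKO group (edgeR adjusted p = 0.0531). Without cKO replicate 3, 3 of 9 rose and Amigo1 fell (adjusted p = 0.00174, at least 20.3-fold lower). Of 12 genes of the WNK and SGK1 control of potassium secretion, none was called by edgeR or DESeq2 and none had an unadjusted p under 0.05. The smallest p was that of Nedd4l, a ubiquitin ligase of this pathway (-0.71, SE 0.395, adjusted p = 0.349). Without cKO replicate 3 again none was called, and 1 was lower at an unadjusted p under 0.05, Nedd4l (-0.37, adjusted p = 0.0928).

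Summed levels of markers of some other cell types moved with the genotype, and the part of these cell types in the results on channel genes was not tested. Of 10 intercalated cell markers 3 of 7 tested fell, and their summed level was 0.998 to 10.9 CPM in cKO and 159.7 to 300.1 CPM in controls; Slc4a1 and Insrr were at 0 in all cKO libraries. Of 6 tested nephron and podocyte markers 1 rose, with a sum of 74.0 to 103.7 CPM in cKO and 24.9 to 35.3 CPM in controls. Nphs1 was at 0 in all controls and had only 2, 0 and 0 counts in cKO replicates 1, 2 and 3. Of 8 tested stromal and smooth muscle markers 2 rose (84.5 to 138.8 CPM in cKO, 19.2 to 31.3 CPM in controls). The higher sum was not shared by all markers of this list. Col1a2 and Col3a1, named after their values were seen, had log2 fold changes of -1.18 and -1.23. Those of Col1a1 and Pdgfrb, named in the same way, were 0.24 and 0.71, and none of these genes was called. Foxd1 was at 0 in all cKO libraries and had only 0, 0 and 5 counts in control replicates 1, 2 and 3. Striated muscle markers summed to 138.4 to 209.7 CPM in cKO and 1.57 to 6.84 CPM in controls, nearly all of it in cKO from Acta1, which rose, with Myog, Myh3 and Myl1 at 0 in all controls. Summed levels of the other lists overlapped between the groups. Neuronal and glial markers were at 0.399 to 23.6 CPM in cKO and 11.8 to 16.3 CPM in controls, the lowest value being that of cKO replicate 3. Endothelial markers were at 11.03 to 35.2 CPM in cKO and 8.64 to 15.9 CPM in controls. Blood and immune markers, of which 1 of 7 tested rose, were at 89.8 to 151.6 CPM in cKO and 63.3 to 455 CPM in controls. Leaving out cKO replicate 3 raised several of these counts. Then 8 of 10 intercalated cell markers and 7 of 16 ureteric epithelium markers fell, and 4 of 8 nephron and podocyte markers, 2 of 5 neuronal and glial markers and 1 of 3 endothelial markers rose. The counts for stroma, striated muscle and blood were 2, 1 and 1 higher as with 6 libraries.

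Exons of 23 of the 77 members overlap a gene on the other strand in GENCODE M21, among them Kcnip4, Kcnj3, Kcnk1, Kcnk2 and Kcnma1 of the 9 called without cKO replicate 3. Whether counting used strand is not stated in the sources, so sense and antisense reads of these genes may not have been kept apart.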

How the data were processed

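Per the labels' protocols, total RNA came from the mirVana kit and libraries from the TruSeq Stranded mRNA kit. The submitters' processing notes list HISAT2, HTSeq, Cufflinks, DESeq and GRCm39 and give neither versions nor the role of each. The authors deposited raw read counts per gene and FPKM values, 1 column per library. The deposited FPKM values equal the counts scaled by 1 length per gene and the library total (largest relative deviation 2.21e-07), so they are no independent measurement. Reference tables are of GRCm38 and were used for names, overlaps and sequences.

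The 3 cKO and 3 control libraries were compared with edgeR 4.0.16 in R 4.3.3 (filterByExpr, TMM factors, robust quasi-likelihood F-test, group as the only term, Benjamini-Hochberg adjustment over all genes tested, called under 0.05). The SE is the size of the log2 fold change divided by the square root of F. Library sizes were 9620235 to 10538314 counts, and libraries of a group differed by more than counting noise. Alternatives were DESeq2 1.42.0, limma 3.58.1 (voom with library weights, or log2(FPKM + 1) and log2(FPKM + 0.1)), other filters and scaling, a replicate block and leaving out each library. The steps were tested on simulated data. The members and lists were chosen with earlier results of these data known. Members named were those called with or without cKO replicate 3, the 10 with the highest mean FPKM over 6 libraries, the highest of each family, any at 0 in 1 group and above 10 counts throughout the other (there was none), and Kcnq1 with Kcnq1ot1; of each list, the called genes or that with the smallest p. The results of 2 genes under this rule or named for their sign are not reported here. No pair of libraries in a group agreed within sampling noise (chi-square over its degrees of freedom 10.2 to 75.6), so none was treated as a library deposited again; this does not show that they are biological replicates.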

Additional observations from a re-analysis of the deposited data

How the results depend on the processing

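The number of members called (1 higher, none lower) was 1 and 1 with DESeq2 and with log2(FPKM + 1), and 3 and 6 with library weights. Over all genes, 459 higher and 469 lower calls became 1029 and 1020 with DESeq2, 696 and 709 with log2(FPKM + 1), and 1607 and 1756 with library weights. The listed partner genes, with none higher and 2 lower, had 1 and 4 with DESeq2, none and 4 with log2(FPKM + 1), and 3 and 6 with library weights. The median of the tested members, -0.36, was -0.21 with no filter, -0.18 with log2(FPKM + 1), -0.54 with log2(FPKM + 0.1) and -0.16 with library weights.

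Leaving out 1 library at a time gave 0 to 4 higher and 0 to 5 lower members, 62 to 1865 higher and 59 to 2032 lower genes, 0 to 4 higher and 0 to 7 lower partner genes, and a member median of -0.86 to -0.18. The upper ends of the counts, and the median of -0.18, are without cKO replicate 3; the lowest counts over all genes are without control replicate 3. The median of -0.86 is without cKO replicate 2, and -0.66 was reached without cKO replicate 1. Fold changes of the 14 named and tested members kept their sign except for Kcnk5 (-0.86 to 0.23 with a library left out, 0.027 with library weights) and Kcnh6 (-0.12 to 0.64 with a library left out).

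Replicate numbers do not pair the libraries: the correlation of deviations from the group means was -0.022, 0.025 and -0.001 for numbers 1, 2 and 3. With the replicate number as a block no member was called, 12 genes were higher and 11 lower, no partner gene was lower, the member median was -0.88, and Kcne1l stood at 3.06 (edgeR adjusted p = 0.151). The cause of these differences was not tested. Low counts limit the 41 members that did not pass the filter, of which none had more than 186 counts in a library. That highest count was of Kcnip2 in cKO replicate 3 alone. Kcnip2 had 7 and 7 counts in cKO replicates 1 and 2, and 0, 6 and 10 counts in controls.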
